A study of Homo sapiens with 6 samples.

Results

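Transcripts of the retinoid X receptor RXRA and of 9 related nuclear receptors (RXRB, RARA, RARB, RARG, PPARA, PPARD, PPARG, VDR and NR1H2) were examined by RNA sequencing of SiHa cells, a line established from a human cervical carcinoma. These are 10 of the 48162 genes in the count table, found by matching their Ensembl identifiers to the symbols. The set was chosen by the measured RXRA level, which was lower after silencing of calponin 3 (CNN3), an actin-binding protein, and the other genes joined it as its relatives and dimer partners. All 10 were in the table and all 10 passed the filter on low counts. Of the 6 samples, 3 were transfected with si-CNN3, for which the labels list the sequence si-CNN3#1, and 3 with the control siRNA si-NC. Every sample came from this single cell line and was harvested 48 h after transfection, and the study's methods describe 3 independent assays per group. No library of untransfected cells and no library with another CNN3 siRNA was analysed here, so loss of CNN3 cannot be told apart from other effects of this siRNA.

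RXRs are ligand-activated transcription factors that work mainly as dimers with other nuclear receptors. The retinoic acid receptors (RARA, RARB, RARG) respond to all-trans retinoic acid, the PPARs to fatty acids and their derivatives, NR1H2 (LXR beta) to oxysterols and VDR to the hormonal form of vitamin D. The dimers bind pairs of a short core motif, and the spacing between the cores influences which dimer binds. Without ligand many of these dimers hold corepressors such as NCOR1, and with ligand they bind coactivators such as NCOA1 and EP300. PPAR and LXR dimers are called permissive because a ligand of the RXR side alone can switch them on, while RAR and VDR dimers generally need the ligand of the partner. In the cervix, as in other lining epithelia, vitamin A and retinoic acid receptors help to set whether cells take a glandular or a squamous form.

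Total counts ran from 18147028 to 19026341 with si-CNN3 and from 20287139 to 24976517 with si-NC. The simple-epithelial keratins KRT8, KRT18 and KRT7 and the keratin KRT17 were high in every library, from 129 CPM (KRT18) to 625 CPM (KRT8), while the adhesion genes CDH1 and EPCAM were lower (34.9 to 39.6 and 5.52 to 7.69 CPM) and the basal keratin KRT5 did not exceed 0.50 CPM. Of the 6 of these 7 epithelial markers that were tested, KRT8 (log2 fold change -0.19, edgeR adjusted p = 4.87e-07) and KRT18 (-0.18, adjusted p = 5.31e-05) fell with si-CNN3 and KRT17 rose (0.23, adjusted p = 1.78e-07). Their part in the receptor and target gene results was not tested. The summed epithelial markers were at 1411 to 1473 CPM with si-CNN3 and 1450 to 1518 CPM with si-NC. Markers of other cell types were low: the leukocyte genes PTPRC and CD3E summed to 1.51 to 2.52 CPM against 1.99 to 2.57 CPM, the fibroblast genes COL1A1 and DCN to 7.07 to 7.48 against 7.35 to 8.42 CPM, and the muscle genes DES (at most 0.05 CPM) and MYH11 to 1.46 to 2.14 against 1.53 to 1.81 CPM. The endothelial gene VWF did not exceed 0.33 CPM, and PECAM1 was not analysed here. None of the 5 of these 8 that could be tested was called by edgeR (adjusted p from 0.455 to 0.966, 0 with an unadjusted p under 0.05). CNN3 itself, the target, stood at 26.0, 26.8 and 31.4 CPM with si-CNN3 against 56.5, 51.7 and 57.2 CPM with si-NC. This is a log2 fold change of -0.97 (SE 0.06, edgeR quasi-likelihood test, adjusted p = 2.04e-20). CPM is the TMM-normalized count of a library scaled by its total, log2 fold changes are si-CNN3 against si-NC, and a gene was called when its adjusted p was at most 0.05. In bulk RNA, fewer cells of a kind and less of a transcript per cell cannot be told apart.

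The 2 siRNAs are shown because the seed of an siRNA (guide bases 2 to 8, in capitals) can also pair with transcripts other than its target. The guides were taken as the complement of the 19 paired bases of the labels' sense strands, printed 5′ to 3′.
si-CNN3#1 guide: uUUGUUGGuucccaucugc
si-NC guide: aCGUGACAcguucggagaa
In the GENCODE 29 transcripts of the 10 receptor genes, the 7 letters complementary to the si-CNN3#1 seed (CCAACAA) were found in PPARA, PPARG and VDR, thus in 3 of 10. Of the 15335 tested genes with a transcript sequence, 26.8% held them. RXRA held none. The site of PPARA lay in the 3′ UTR (chr22:46241797-46241803, plus strand, GRCh38), that of PPARG in the 5′ UTR of a protein-coding transcript (chr3:12372074-12372080, plus strand), and that of VDR in the 5′ UTR of transcript VDR-207 (chr12:47882908-47882914, minus strand). They are printed with 11 bases on either side, in transcript direction, with the site in capitals.
PPARA: ggagtcctttgCCAACAAaaacagaccaa
PPARG: taaggtcatttCCAACAAaactacaaagg
VDR: catgcctgctcCCAACAAgccacttctgt
The letters complementary to the si-NC seed (TGTCACG) were found in RARA and PPARG, and in 8.88% of tested genes. Whether any of these sites has a part in the levels below was not tested.

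RXRA was lower in every si-CNN3 library than in any si-NC library. Its counts were 3030, 3140 and 2767 with si-CNN3 and 4119, 5280 and 4235 with si-NC, or 161, 164 and 152 CPM against 205, 212 and 196 CPM. The gene (ENSG00000186350) lies on the plus strand of chromosome 9 (chr9:134317098-134440585, GENCODE 29, GRCh38). Its log2 fold change was -0.37 (SE 0.03, 95% interval -0.43 to -0.30), a level 22.5% below that of the control. This value chose the gene and is given without a test. For scale, the middle 90% of the 15860 tested genes lay between -0.30 and 0.36 on the same scale, with a median of 0.00. Across all alternative settings the RXRA value stayed between -0.40 and -0.34.

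RXRB, the second RXR gene and able to take the same partners, was not called. It was at 44.3, 44.4 and 42.8 CPM with si-CNN3 and at 44.0, 44.7 and 46.2 CPM with si-NC. The groups overlapped, and the log2 fold change was -0.04 (SE 0.05, 95% interval -0.13 to 0.06, edgeR adjusted p = 0.713). RXRB (chr6:33193588-33200688, minus strand) shares 244 exon bases with SLC39A7 on the opposite strand, which had 1644 to 2394 counts, and with the strand setting of the counting unknown, part of its counts may come from that gene. The third RXR gene, RXRG, had 1 count in 1 si-NC library and none in the other 5.

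**Figure D1:**
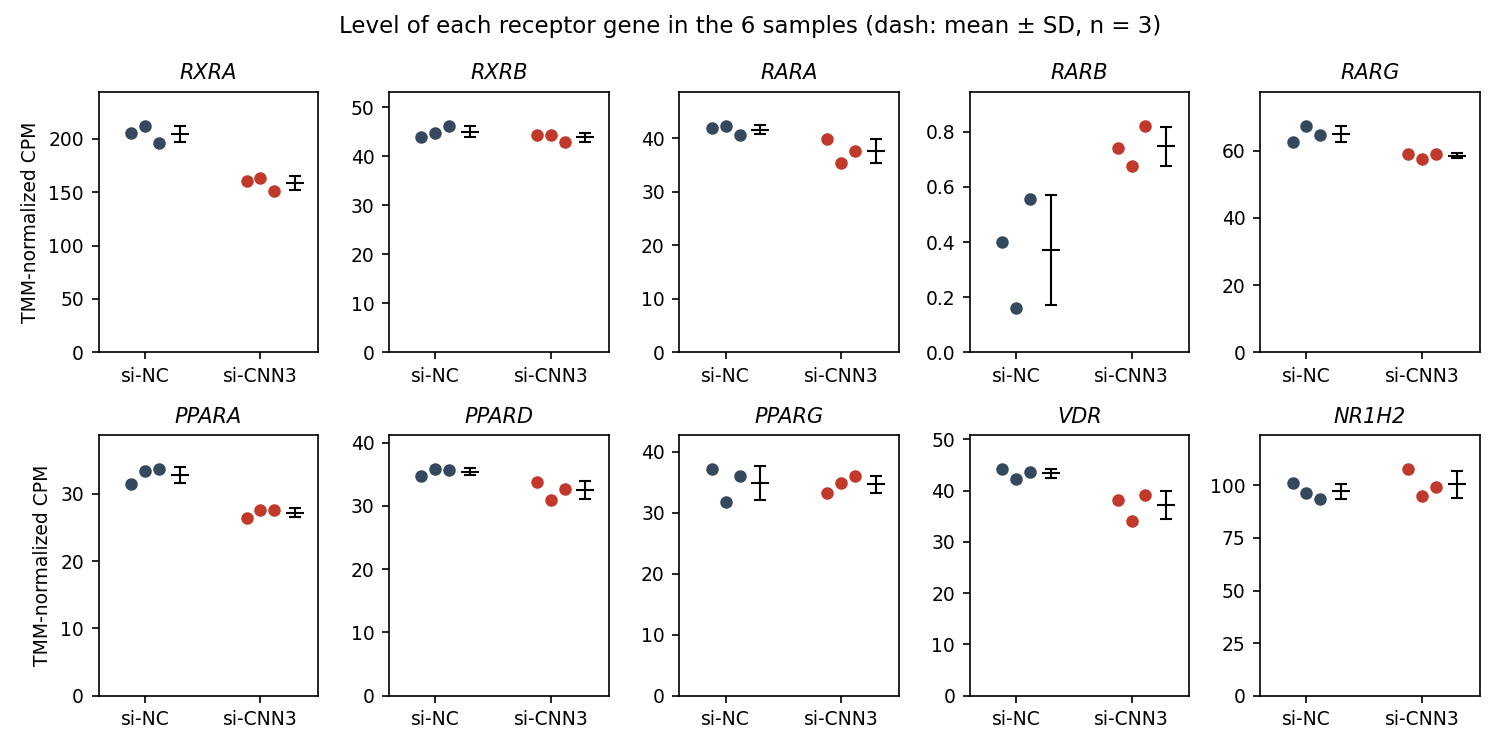
Level of each receptor gene (y axis, TMM-normalized CPM, starting at 0 and scaled per gene) in the 3 si-NC samples (dark) and the 3 si-CNN3 samples (red), with the mean and SD beside the points. RXRA stands apart between groups (152 to 164 against 196 to 212 CPM), RXRB, PPARG and NR1H2 overlap, and RARB stays below 1 CPM throughout.

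Of the 9 genes other than RXRA, 4 were called, all lower (RARA, RARG, PPARA and VDR), and 5 were not. Among all tested genes 13.3% were called in either direction and 7.14% lower. In 6 of the 9 genes the groups did not overlap, as in 28.2% of all tested genes. Since the set was drawn up from this same comparison, these counts are a description. The number of calls was 2 without si-NC sample 2, 2 with DESeq2 and 0 when unfiltered FPKM values were tested by limma.

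Among the retinoic acid receptors, RARA and RARG were called lower with small changes, and RARB was near the lower limit of detection. RARG (chr12:53210567-53232980, minus strand), the retinoic acid receptor prominent in stratified epithelia, stood at 59.0, 57.6 and 59.0 CPM with si-CNN3 and at 62.6, 67.4 and 64.6 CPM with si-NC. The groups did not overlap. The log2 fold change was -0.15 (SE 0.04, edgeR adjusted p = 0.00850), and the call was lost without si-NC sample 2 (adjusted p = 0.0978) and with DESeq2 (adjusted p = 0.0703).

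RARA (chr17:40309192-40357643, plus strand), the most widely expressed receptor of the family, was at 39.8, 35.4 and 37.7 CPM with si-CNN3 and at 41.9, 42.3 and 40.7 CPM with si-NC. Every si-CNN3 value was below every si-NC value, with the nearest pair less than 1 CPM apart. Its log2 fold change was -0.15 (SE 0.05, edgeR adjusted p = 0.0454), the weakest of the 4 calls. It was lost with DESeq2 (adjusted p = 0.214) and when any single library other than si-CNN3 sample 1 was left out (adjusted p from 0.0585 to 0.267). In all, 13 of the 19 alternative settings lost it. Among them were edgeR with upper-quartile scaling (adjusted p = 0.0575), total counts (0.0841) and a GC and length correction (0.0714). RARA shares 556 exon bases with the antisense gene RARA-AS1, which had 22 to 46 counts.

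RARB (chr3:25174332-25597932, plus strand), a receptor gene that is itself switched on by retinoic acid, had only 14, 13 and 15 counts with si-CNN3 and 8, 4 and 12 with si-NC. This corresponds to 0.74, 0.68 and 0.82 CPM against 0.40, 0.16 and 0.56 CPM, so all si-CNN3 values were higher. RARB shares 28 exon bases with TOP2B on the opposite strand, which had 4747 to 6969 counts, and whether reads of that gene are among its few counts was not tested. The log2 fold change of 1.03 had a wide error (SE 0.40, 95% interval 0.23 to 1.83) and was not called (edgeR adjusted p = 0.0770). A single library moved the result: without si-NC sample 3 the fold change was 1.46 (adjusted p = 0.0468), and without si-NC sample 2 it was 0.63 (adjusted p = 0.428).

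Retinoic acid receptor dimers favour direct repeats of the core motif with 5 bases between (DR5). The RefSeq promoter windows (250 bases before to 50 after each start, GRCh38.p14) were searched on both strands for 2 cores with this spacing. A core was AGGTCA, or one of its common variants: a first variant, GGGTCA, then a further variant, AGTTCA, or the last variant, GGTTCA, in any combination. Of 35116 windows, 31 held one (0.0883%). Windows were found for 9 of the 10 receptor genes, VDR being the exception. RARB had such a repeat (chr3:25428200-25428236, plus strand), centred 44 bases before a start that lies inside the GENCODE span of the gene. Of the 8 retinoic acid receptor target genes with windows, the other to hold it was CYP26A1 (chr10:93073793-93073829, minus strand), which codes for an enzyme that breaks down retinoic acid. Its repeat was centred 82 bases before a start that also lies inside the GENCODE span of the gene. Both are shown because these genes are the textbook readouts of retinoic acid, with the cores in capitals.
RARB: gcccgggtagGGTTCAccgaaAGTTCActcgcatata
CYP26A1: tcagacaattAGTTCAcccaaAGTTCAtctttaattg
CYP26A1, like RARB, was close to the floor, with 9, 14 and 7 counts with si-CNN3 and 11, 16 and 20 with si-NC. Its log2 fold change was -0.40 and was not called (edgeR adjusted p = 0.546), so at this depth both were too low for a precise comparison. No repeat with 1, 3 or 4 bases between the cores (DR1, DR3 and DR4, the spacings favoured by PPAR, VDR and LXR dimers) was found in the windows of the receptor genes, nor any DR1, DR3 or DR4 in those of the PPAR, VDR and LXR target genes, respectively. Among all windows, 0.131% held a DR1, 0.0740% a DR3 and 0.0854% a DR4 of these cores. At such rates none was likely in the 22 windows of the receptor genes or in the 31, 11 and 16 windows of the PPAR, VDR and LXR targets. Finding none therefore does not show that these genes lack response elements.

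Of the PPARs, PPARA fell, while PPARD and PPARG were not called. PPARA (chr22:46150521-46243756, plus strand), known for driving fatty acid oxidation, was at 26.4, 27.5 and 27.5 CPM with si-CNN3 and at 31.4, 33.3 and 33.6 CPM with si-NC. The groups were well separated, and the log2 fold change was -0.27 (SE 0.06, edgeR adjusted p = 2.63e-04), a level 17.2% below the control. Of the 9 genes other than RXRA it had the largest fall. The call was kept without each of the 6 libraries (highest adjusted p = 0.00435).

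PPARD (chr6:35342558-35428191, plus strand), the PPAR expressed in most tissues, was at 33.8, 30.9 and 32.7 CPM against 34.7, 35.8 and 35.6 CPM. The groups did not overlap but lay close together, and the log2 fold change of -0.12 (SE 0.05, 95% interval -0.23 to -0.02) did not pass (edgeR adjusted p = 0.118). PPARG (chr3:12287368-12434356, plus strand), the PPAR best known from fat cells, was at 33.3, 34.8 and 36.0 CPM against 37.1, 31.8 and 36.0 CPM. Its groups overlapped fully, with a log2 fold change of -0.01 (SE 0.06, 95% interval -0.12 to 0.10, edgeR adjusted p = 0.962).

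VDR, the vitamin D receptor (chr12:47841537-47943048, minus strand), fell. It was at 38.2, 34.1 and 39.2 CPM with si-CNN3 and at 44.1, 42.3 and 43.6 CPM with si-NC, without overlap. The log2 fold change was -0.22 (SE 0.05, edgeR adjusted p = 0.00153), a level 14.2% below the control, and the call was kept without each of the 6 libraries (highest adjusted p = 0.0478). VDR shares 19 exon bases with the antisense gene AC121338.1, which had at most 3 counts. NR1H2, the LXR gene expressed in most tissues (chr19:50329653-50382982, plus strand), was at 107.6, 94.8 and 99.4 CPM against 101.2, 96.5 and 93.8 CPM. Its groups overlapped, and the log2 fold change was 0.05 (SE 0.04, 95% interval -0.02 to 0.13, edgeR adjusted p = 0.437).

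**Figure D2:**
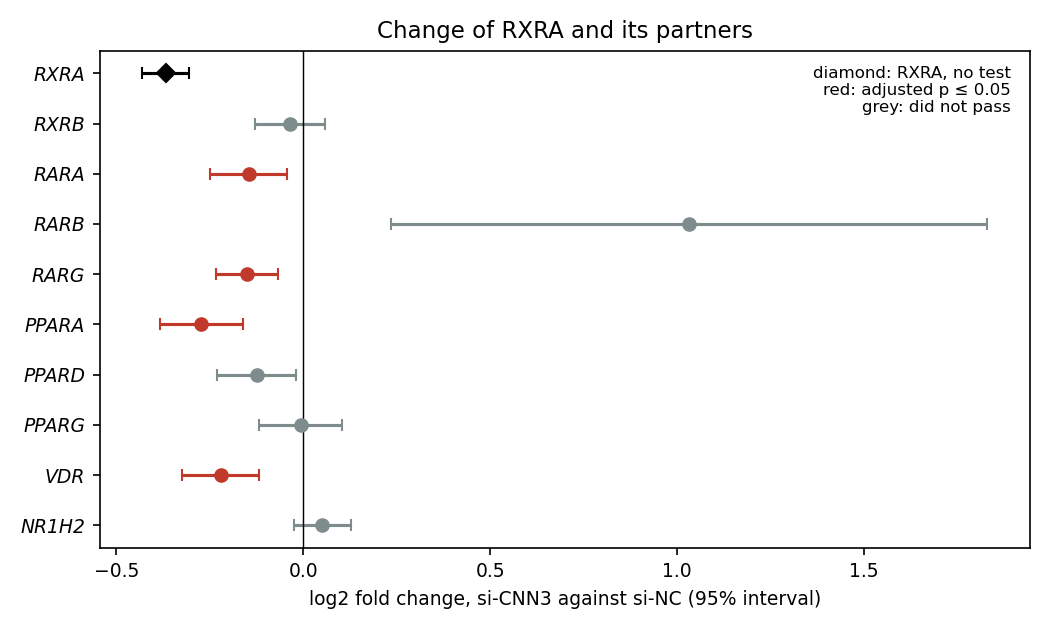
Log2 fold change (x axis, si-CNN3 against si-NC) of each receptor gene with its 95% interval from the edgeR fit. RXRA (black diamond, no test) is at -0.37, the 4 called partners (red) lie between -0.27 and -0.15, and RARB has the widest interval, 0.23 to 1.83.

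Levels of different genes were compared per transcript length, as FPKM (the count divided by gene length and library total). In si-NC, NR1H2 was the highest at 72.7 ± 2.65 FPKM (SD, n = 3), followed by RARG at 56.0 ± 2.29 and RXRA at 53.3 ± 2.18. RARA (28.1 FPKM), RXRB (25.6) and PPARG (23.6) formed a middle group, below which came VDR (17.1), PPARD (12.3) and PPARA (11.3). RARB was last at 0.216 FPKM. Of the neighbours in this order, RARG and RXRA overlapped between samples, as did RXRB and PPARG, and the others did not.

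With si-CNN3 the order of the means was identical, but the gaps around RXRA were not. RXRA was at 41.8 ± 1.67 FPKM and no longer overlapped RARG (51.2 ± 0.511), while RARA (25.7) and RXRB (25.3) now overlapped. The order depends on the length used for each gene, and so do the FPKM shares and sums across genes given below. The deposited values use 3813 bases for RXRA and 1149 for RARG, whereas the longest GENCODE 29 transcripts have 5770 and 2959. With the longest transcripts, an alternative chosen after seeing the data, RXRA ranked 2 of 10 in si-NC in place of 3 of 10, at 35.5 CPM per kilobase against 21.9 for RARG.

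**Figure D3:**
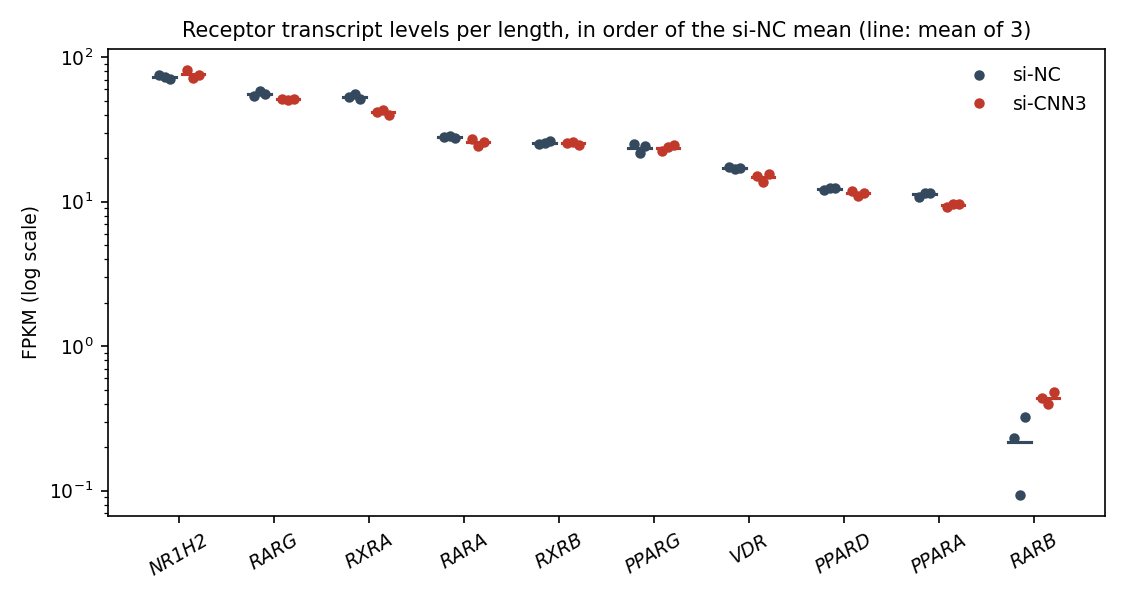
FPKM of each receptor gene (y axis, log scale) in the si-NC (dark) and si-CNN3 samples (red), in order of the si-NC mean, with a line at the mean of 3. NR1H2, RARG and RXRA lead in both groups, RXRA drops from 53.3 to 41.8 FPKM, and RARB lies far below the rest.

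RXRA and RXRB together make up nearly all RXR transcripts here. RXRA supplied 62.3%, 62.7% and 61.8% of RXR FPKM with si-CNN3 and 68.1%, 68.4% and 66.0% with si-NC. The means were 62.3% ± 0.468 and 67.5% ± 1.29 (SD, n = 3), and the rest was RXRB, at 37.7% and 32.5%. The sum of the RXR genes was 67.5, 69.0 and 64.7 FPKM with si-CNN3 against 78.2, 81.1 and 77.4 FPKM with si-NC. These values follow from the RXRA level that chose the set and have no test.

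The 8 partner genes (RARs, PPARs, VDR and NR1H2) added up to 213 ± 6.55 FPKM with si-CNN3 and 221 ± 1.94 FPKM with si-NC (SD, n = 3), and the groups did not overlap (205.6 to 218.3 against 219.0 to 222.7 FPKM). The partners of non-permissive dimers (RARs and VDR) summed to 93.8, 89.0 and 93.6 FPKM against 99.6, 103.9 and 100.7 FPKM, without overlap. Those of permissive dimers (PPARs and NR1H2) summed to 124.5, 116.6 and 121.1 FPKM against 123.1, 118.0 and 118.3 FPKM, and overlapped. Most of this sum was NR1H2, with means of 76.2 FPKM with si-CNN3 and 72.7 FPKM with si-NC. The PPARs alone summed to 43.5, 44.5 and 45.7 FPKM against 47.7, 45.5 and 48.2 FPKM, also with overlap, although PPARA was called lower. RXR FPKM per partner FPKM was 0.315 ± 0.0180 with si-CNN3 and 0.357 ± 0.00761 with si-NC. These sums and this ratio hold for the deposited gene lengths only, and other lengths would change them.

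Within the families of partners, the RARG and PPARD shares differed between groups by less than the SD between samples. RARG made up 66.2% ± 1.04 of RAR FPKM with si-CNN3 and 66.4% ± 0.819 with si-NC (SD, n = 3; exact two-sided permutation test, p = 0.8). PPARD made up 25.6% ± 1.33 of PPAR FPKM against 26.0% ± 1.16 (SD, n = 3; exact two-sided permutation test, p = 0.5). Both p-values were 0.8 after adjustment over the 2 comparisons. With 3 samples against 3 this exact permutation test cannot go below p = 0.1. PPARA, the PPAR that fell, made up 21.2% of PPAR FPKM against 23.9%, without overlap.

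The ratio of RXRA to each other gene was also taken within each library. Every ratio holds the RXRA level that chose the set, so a lower ratio to a gene of similar level in both groups was fixed beforehand, and the values are a description. On the log2 scale the mean difference was -1.55 for the ratio to RARB, which rests on few counts, -0.42 for NR1H2, -0.36 for PPARG, -0.33 for RXRB, -0.24 for PPARD and -0.22 for both RARA and RARG. It was -0.14 for VDR and -0.10 for PPARA, both lower with si-CNN3 themselves, and for these the groups overlapped.

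**Figure D4:**
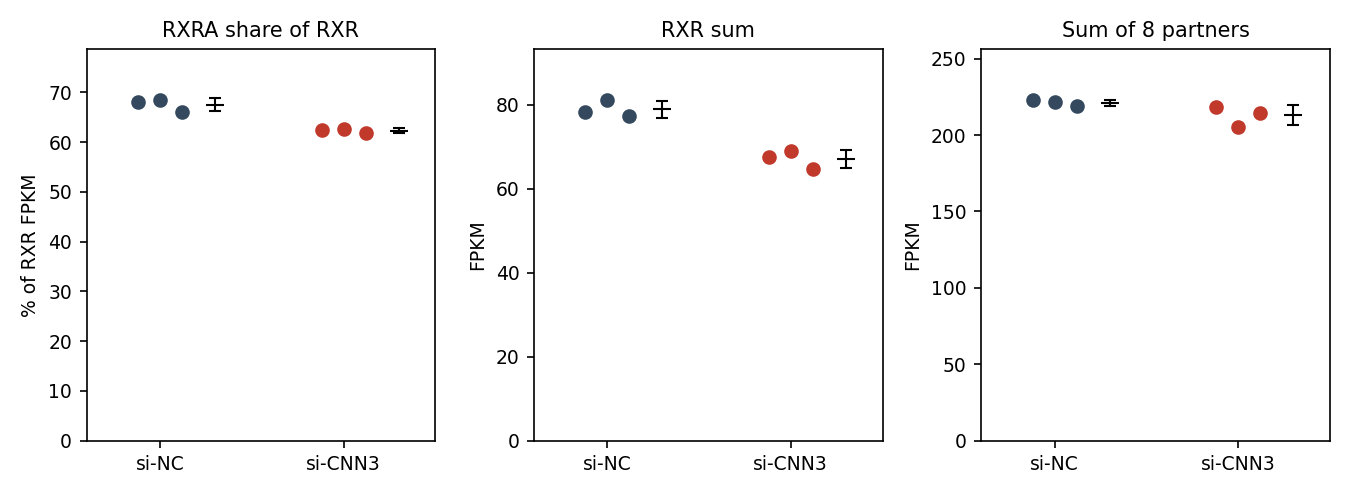
RXRA share of RXR FPKM (left, percent), sum of the RXR genes (middle, FPKM) and sum of the 8 partner genes (right, FPKM) in the si-NC and si-CNN3 samples, with mean and SD. The groups do not overlap in any of the 3 panels, with means of 62.3% against 67.5%, 67.1 against 78.9 FPKM, and 213 against 221 FPKM.

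The genes most like RXRA were sought by the distance between mean-centred log2 CPM profiles over the 6 samples, among 14110 genes of at least 1 CPM. The nearest 5 were MAPK8IP2 (distance 0.0539), TAF7L (0.0614), KIF26A (0.0653), PBK (0.0673) and CTDSPL (0.0712), where the median gene was at 0.505. As this measure picks them for following RXRA, their fold changes of -0.36 to -0.34 are a description. Of the other receptor genes, PPARA came nearest (rank 190) and NR1H2 was farthest (rank 8448), leaving aside RARB, which was too low to be ranked.

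The remaining RXR partners and the genes that act with or below these dimers were read from the same fit. Taking each gene once and without the 10 receptors, 79 of 102 pathway genes could be tested. Of these, 7 rose and 18 fell, while among all tested genes 6.17% rose and 7.14% fell. The median log2 fold change of the 79 was -0.06. The lists were chosen with earlier results of these data known, so the counts of calls in each are a description.

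Of 9 further partners, 6 were tested and 2 fell, beside 7.14% of all tested genes. NR4A2, an orphan receptor of the NUR family, was at 21.4, 23.6 and 20.9 CPM with si-CNN3 and at 26.5, 27.4 and 26.4 CPM with si-NC. Its log2 fold change was -0.29 (SE 0.06, edgeR adjusted p = 5.02e-04). THRA, a thyroid hormone receptor, also passed, at -0.13 (adjusted p = 0.0395), but lost the call without any of 4 single libraries (si-CNN3 samples 2 and 3, si-NC samples 1 and 2, adjusted p up to 0.153). The thyroid hormone receptor THRB (0.03) and the second LXR gene NR1H3 (-0.12) did not pass. RXRG, NR1H4 and NR1I2 were too low to test.

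None of the 12 coactivators was called in the main edgeR fit or by DESeq2, where edgeR called 13.3% of all tested genes. In the main fit 2 had an unadjusted p under 0.05. With total counts only, or with a replicate block, edgeR called 1. The highest were NCOA3, at 364 to 373 CPM with si-CNN3 and 363 to 374 CPM with si-NC, and EP300, an acetyltransferase, at 312 to 328 against 324 to 326 CPM. The log2 fold change of EP300 was -0.01, and that of NCOA3 was smaller still.

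Of the 9 corepressor genes, 1 rose and 2 fell, beside 6.17% and 7.14% of all tested genes. TBL1XR1, an exchange factor of the NCOR complexes, was at 143, 142 and 143 CPM with si-CNN3 and at 115, 114 and 112 CPM with si-NC, which is clearly apart. The log2 fold change was 0.33 (SE 0.03, edgeR adjusted p = 5.05e-12). Its homologue TBL1X went the other way, at 186, 184 and 172 CPM against 203, 197 and 199 CPM (log2 fold change -0.15, adjusted p = 2.85e-04). NCOR1 (0.02) and SIN3A (-0.03) did not pass.

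Of the 20 genes that supply or clear ligands, 15 were tested, with 2 higher and 2 lower, beside 6.17% and 7.14% of all tested genes. ALDH1A1 and ALDH1A3, which make retinoic acid from retinal, rose, and CYP26B1, which breaks it down, and RETSAT, which saturates retinol, fell. ALDH1A1 was low, at 2.92, 3.33 and 2.74 CPM against 1.55, 2.17 and 1.39 CPM, with a log2 fold change of 0.80 (SE 0.19, edgeR adjusted p = 0.00236). ALDH1A3 was the more abundant of the pair, at 60.8, 60.7 and 56.2 CPM against 53.2, 54.8 and 54.0 CPM, with a log2 fold change of 0.13 (adjusted p = 0.0301). CYP26B1 was at 19.4, 20.3 and 18.8 CPM against 23.1, 23.8 and 23.2 CPM (log2 fold change -0.26, adjusted p = 0.00225).

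Leaving out single libraries kept the calls of ALDH1A1 and CYP26B1. That of ALDH1A3 was lost without si-CNN3 sample 1 or 2 or si-NC sample 1 or 3 (adjusted p up to 0.135), and that of RETSAT (log2 fold change -0.15, adjusted p = 0.0252) without si-CNN3 sample 1 or si-NC sample 2 or 3 (adjusted p up to 0.134). The retinol dehydrogenase RDH11 (0.03) and the retinal reductase DHRS3 (-0.07) did not pass. CRABP1, BCO1, CYP27A1, CYP24A1 and CH25H were too low to test.

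Taking each known target gene of the dimers once, 46 of 62 were tested. Of these, 4 rose and 13 fell, with a median log2 fold change of -0.08. Among all tested genes 6.17% rose and 7.14% fell. As the lists were drawn up with earlier results of these data known, these counts are a description. The lists share genes with the ligand enzymes and with the receptors (RARB, for instance), and each target is also controlled by other factors.

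Of the RAR targets, 13 of 14 were tested, with 1 higher and 3 lower, beside 6.17% and 7.14% of all tested genes. TGM2, tissue transglutaminase, had the clearest change at 379, 395 and 375 CPM with si-CNN3 and 512, 520 and 514 CPM with si-NC. Its log2 fold change was -0.43 (SE 0.03, edgeR adjusted p = 2.49e-19). RARRES1, named for its response to retinoids, was at 202, 194 and 189 CPM against 231, 244 and 233 CPM (log2 fold change -0.27, adjusted p = 1.80e-10). CYP26B1, given above, was the third to fall. DHRS3 and NRIP1 (-0.08) did not pass, and CDX1 was too low to test.

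Of the PPAR targets, 17 of 23 were tested, with 1 higher and 4 lower, beside 6.17% and 7.14% of all tested genes. ANGPTL4, a secreted inhibitor of lipoprotein lipase, was at 38.4, 35.7 and 36.8 CPM with si-CNN3 and 48.2, 43.9 and 46.8 CPM with si-NC. The log2 fold change was -0.32 (SE 0.05, edgeR adjusted p = 1.99e-06). FADS2, a fatty acid desaturase that is also under SREBP control, was at 116, 121 and 116 CPM against 140, 147 and 151 CPM (log2 fold change -0.31, adjusted p = 1.15e-10). PLIN2, which coats lipid droplets, was at 203, 199 and 205 CPM against 229, 225 and 218 CPM (log2 fold change -0.15, adjusted p = 1.21e-04).

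CPT1A and SLC25A20 act in succession in bringing fatty acids into mitochondria, and they went opposite ways. CPT1A was called lower at -0.13 (adjusted p = 0.0110) although its groups overlapped, and SLC25A20 was called higher at 0.20 (adjusted p = 0.0222). The call of CPT1A was lost without si-CNN3 sample 1 or 3 or si-NC sample 3 (adjusted p up to 0.111), and that of SLC25A20 without si-CNN3 sample 1 or 3 or si-NC sample 1 (adjusted p up to 0.125). The fatty acid oxidation genes ACADVL (-0.08) and HADHA (-0.01) did not pass. The other 6 targets were too low to test.

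Of the LXR targets, 11 of 13 were tested and 4 fell, and none rose. Among all tested genes 7.14% fell and 6.17% rose. ABCG1, which exports cholesterol, was at 29.1, 29.6 and 28.0 CPM with si-CNN3 and 40.6, 39.4 and 38.7 CPM with si-NC, far apart. Its log2 fold change was -0.45 (SE 0.05, edgeR adjusted p = 1.80e-09). The lipid synthesis genes SCD (-0.17, adjusted p = 5.53e-07), LPCAT3 (-0.16, adjusted p = 1.97e-04) and FASN (-0.09, adjusted p = 0.0158) also fell. The call of FASN was lost without si-CNN3 sample 3 or si-NC sample 3 (adjusted p up to 0.174).

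A further cholesterol exporter, ABCA1, was at 50.4, 51.0 and 54.7 CPM against 53.7, 57.1 and 53.0 CPM, with overlap, and did not pass (log2 fold change -0.07, adjusted p = 0.336). Neither did SREBF1 (-0.03), the LXR target that drives fatty acid synthesis. ABCG5 and ABCG8 were too low to test.

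Of the 12 VDR targets only 5 could be tested, with 2 higher and 2 lower, beside 6.17% and 7.14% of all tested genes. CD14, a coreceptor for bacterial lipopolysaccharide, fell from 152, 141 and 154 CPM to 126, 118 and 120 CPM (log2 fold change -0.30, edgeR adjusted p = 7.88e-10). CDKN1A, the cell cycle inhibitor p21 and also a p53 target, rose from 117, 108 and 107 CPM to 142, 129.5 and 138 CPM (log2 fold change 0.30, adjusted p = 1.79e-09). The calcium pump gene ATP2B1 rose by 0.15 on the log2 scale (adjusted p = 0.00102).

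THBD was low, at 0.74, 1.72 and 0.55 CPM against 1.55, 2.57 and 1.72 CPM, and its groups overlapped. It was called at -0.96 (adjusted p = 0.0118), and the call was lost without si-CNN3 sample 1 or 3 or si-NC sample 2 (adjusted p up to 0.164). Without si-CNN3 sample 2 the log2 fold change was -1.60, and without each library that ended the call it lay between -0.78 and -0.68. IGFBP3 did not pass at 0.12 (adjusted p = 0.0536), but passed without si-CNN3 sample 2 or 3 or si-NC sample 1 or 2 (lowest adjusted p = 0.00544). CYP24A1, the most sensitive VDR target in many cells, had at most 1 count per library.

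**Figure D5:**
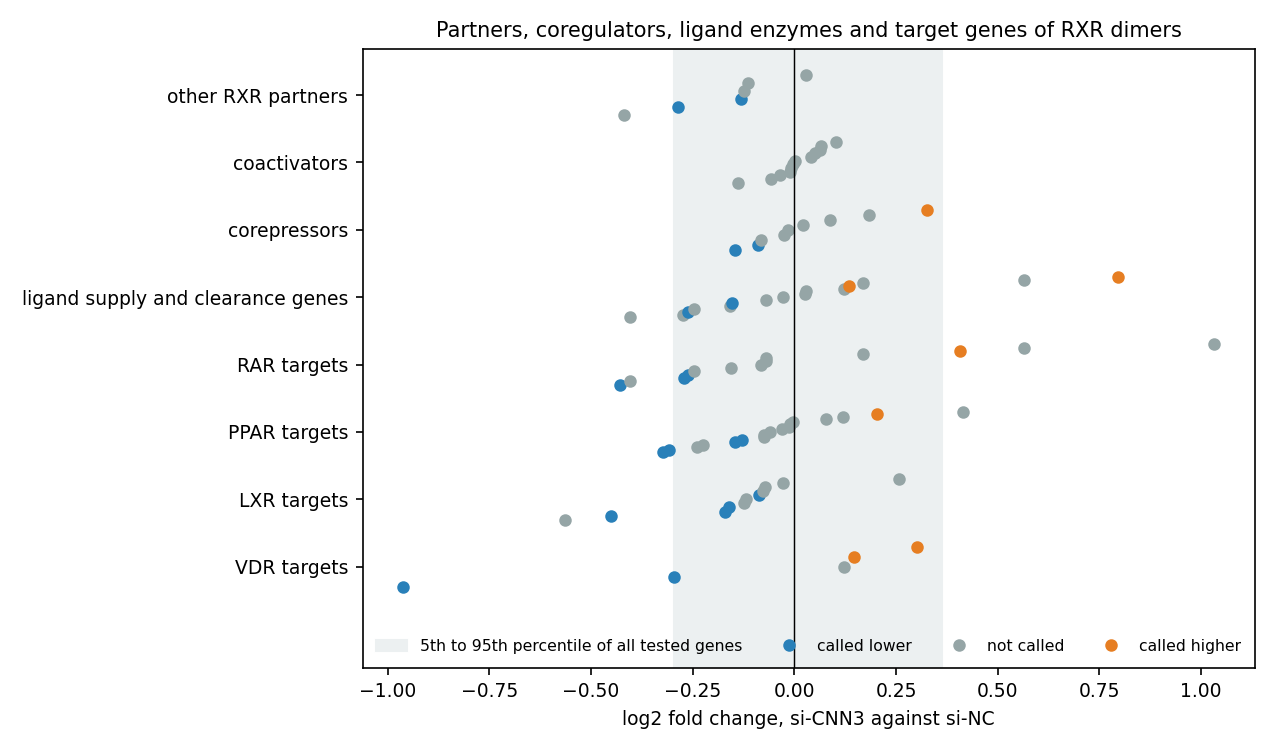
Log2 fold change (x axis, si-CNN3 against si-NC) of every tested gene of the 8 lists, 1 point a gene, blue where called lower, orange where called higher and grey where not called. The shaded band spans the 5th to the 95th percentile of all tested genes (-0.30 to 0.36). Coactivators lie between -0.14 and 0.10, the called LXR targets all lie to the left, and RARB at 1.03 is the point farthest to the right, uncalled.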

How the data were processed

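RNA from 3 si-CNN3 and 3 si-NC samples of SiHa cells was sequenced. The authors deposited raw counts per Ensembl gene and FPKM values made from the same counts (count divided by gene length and library total, checked for all values). The submitters' processing notes name TopHat2 2.0.9, Bowtie2 2.0.6, HTSeq and DESeq 1.10.1. The genome build, annotation and strand setting are not given in the sources used here. Genes were named from GENCODE 29 (45342 of 48162 identifiers matched). Counts were tested with edgeR 4.0.16 in R 4.3.3 (TMM, filterByExpr, quasi-likelihood test, Benjamini-Hochberg adjustment over 15860 genes, threshold 0.05), and the pipeline was tested on simulated data. Gene shares were compared by exact permutation tests in SciPy 1.17.1. Alternatives were other scalings, DESeq2 1.42.0, edgeR's exact test, other filters, a replicate block, a GC and length correction, limma 3.58.1 after adding 1 or 0.1 to FPKM and taking log2, and each sample left out.

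The receptor genes and lists were chosen with earlier results of these data known. The rule for named genes was the 10 receptors, CNN3, up to 5 called genes per list with the largest change, the 2 uncalled genes with the highest CPM, untested genes where at most 5, and the 5 nearest to RXRA. CYP26A1 and RXRG counts, CYP24A1 and the markers were named besides, and 2 list genes that the rule names are not reported here. Replicates of a group differed by more than counting error (chi-square per degree of freedom 1.52 to 1.90), and each counted as 1 sample. That they are independent assays is taken from the study's methods, since this spread cannot show it. In the edgeR fit the common coefficient of variation between samples, beyond counting error, was 0.0232. The edgeR p-values weigh the difference between groups against the spread between samples, which the fit estimates partly from all tested genes.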

Additional observations from a re-analysis of the deposited data

How the results depend on the processing

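The RXRA and CNN3 values kept their direction under all 19 alternatives, as did the CNN3 call. DESeq2 called 1074 genes in place of 2111, limma on log2(FPKM + 1) called 1363, with a pseudocount of 0.1 it called 1353, and with no filter 585. Of the 9 receptors other than RXRA, 4 were called. This number was 3 with upper-quartile scaling or total counts, 2 with DESeq2 and 0 with limma without filter. With 1 library left out it was 2 to 4 (2 without si-NC sample 2). Of the further partners, 1 was called in place of 2 with upper-quartile scaling, total counts, DESeq2 and limma on log2(FPKM + 1) or log2(FPKM + 0.1), 0 with limma without filter, and 1 to 2 with a library left out. Coactivators gave 1 call in place of 0 with total counts, with the replicate block, and with the block plus the GC and length correction. Ligand genes gave 2 calls in place of 4 with DESeq2, 0 with limma without filter, and 2 to 4 with a library left out. PPAR targets gave 3 in place of 5 with DESeq2, 2 with limma without filter, and 3 to 5 with a library left out. With limma without filter, the corepressors gave 1 call in place of 3, the RAR targets 2 in place of 4 and the VDR targets 2 in place of 4. The cause was not tested.

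Among differences near 0 that did not pass, the RARG share (-0.22 percentage points) ranged from -0.72 to 0.32 with a library left out, and the PPARD share (-0.45) from -1.20 to 0.21, and was 0.12 as a share of counts. The RXRA share of RXR counts, as opposed to FPKM, differed by -3.64 percentage points in place of -5.22. Uncalled log2 fold changes that turned sign were NCOA3 (0.00152 with upper-quartile scaling, 0.0131 with total counts, 0.0127, 0.0129 and 0.0127 with limma, -0.0179 to 0.00588 with a library left out), EP300 (0.00798 with total counts, 0.0073, 0.00748 and 0.0073 with limma, -0.0224 to 0.0136 with a library left out), HADHA (0.00475, then 0.00483, 0.00486 and 0.00483), PPARG (0.0106, then 0.00765, 0.00801 and 0.00765, and -0.0753 to 0.0375 with a library left out), THRB (-0.00081 with the block and the correction), NR1H2 (-0.00052 to 0.0924 with a library left out) and RDH11 (-0.00171 to 0.0653).

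Of all values computed under alternatives, 1084 were counted as the same, 90 single-gene calls were lost and 15 were gained. A further 32 values turned sign and 32 were counted as moved. For a single gene, the same meant its sign and its side of the threshold. For a count of calls it meant a number close to the main one, and for the RXRA values within their SD. The RARG and PPARD shares had only to keep their sign.

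Same-numbered samples deviated together only weakly (r = 0.0231 to 0.0643, below 0.1, though each correlated best with its own number), so the numbers were not taken as pairs. With the replicate block 2727 genes were called, and 2643 with the correction as well. Depth limits RARB, CYP26A1, THBD and the untested targets.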
